A study of Lathyrus oleraceus with 9 samples.

Results

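The change in gene expression of pea seeds between 8 d and 15 d of ageing was examined for what remained once the general widening of the expression changes was taken out. The tested arrays were the 3 of seeds aged for 15 d, set against the 3 of seeds aged for 8 d, of 9 arrays in the whole series. All seeds were of Pisum sativum cv Alaska Early, were equilibrated at 60% relative humidity to a moisture content of 12%, and were then sealed and held at 50 °C, each replicate being 20 whole seeds. On each array, RNA of aged seeds and RNA of non-aged seeds that had been equilibrated in the same way were hybridised together in 2 colours, so that each of 5246 probes gave 1 log2 ratio, with aged seeds over non-aged ones. The dyes were exchanged on replicate 2. A value above 0 is called up-regulation in aged seeds and a value below 0 down-regulation. Both are relative to an equal mass of RNA, 1 µg per sample, from non-aged seeds, and the words give the sign of the ratio only. The paper reports that RNA integrity fell during ageing, with signs of it from the earliest time point. It proposes that degradation of stored messengers may contribute to the lower levels of down-regulated products. RNA integrity was not analysed here, and its part in the ratios and in their change with time was not tested. In whole seeds, fewer living cells of a type and less RNA per cell cannot be told apart. The products described are those of the study's own list of 717 ageing-responsive probes, which was chosen on these arrays for at least a 2-fold change at one or more of the 3 time points, 8 d, 12 d or 15 d. The list does not hold every probe with such a change. Of 367 probes with a mean log2 ratio of 1 or more in size at 8 d, 354 are on it.

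A dry pea seed is metabolically quiet and holds messengers stored since maturation, among which those for storage proteins, protective proteins and the translation machinery are abundant. Translation of such stored messengers is what a seed begins with when it takes up water, before its own transcription is fully under way. Ageing at raised temperature and moisture lowers vigour first and viability later, and is accompanied by oxidation of lipids, proteins and nucleic acids.

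The general widening was taken as the least-squares slope of the mean log2 ratio at 15 d on that at 8 d over all probes, which was 1.17. Pairs of single arrays, 1 of 15 d and 1 of 8 d, gave slopes between 1.14 and 1.16. The mean at 12 d on the mean at 8 d had a slope of 1.01. The scaled median absolute deviation of the deposited values lay between 0.445 and 0.460 at 15 d, against 0.385 at 8 d, and dividing each array by its own deviation brought the slope to 1.00. Whether the slope came from the seeds, the state of their RNA included, or from the scaling of the arrays cannot be told apart here. Departures were therefore read relative to it. The departure of a probe is its mean log2 ratio at 15 d minus 1.17 times its mean log2 ratio at 8 d. It was tested for every probe with limma, and a probe was called at a Benjamini-Hochberg adjusted p under 0.05. Departures are log2 values with their SE throughout. A probe that departed in the direction of its 8 d mean is said to lie past the widened 8 d value. One that departed against that direction is said to fall short, also where it crossed 0.

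Of all 5246 probes, 1426 (27.2%) departed from the widening, 729 (13.9%) above and 697 (13.3%) below the widened 8 d value. By sense, 720 (13.7%) lay past the widened value and 704 (13.4%) fell short of it. Of the 717 listed probes, 309 departed, 234 past the widened value and 75 short of it, and 408 gave no call. Without the widening, the plain difference of 15 d minus 8 d passed the same test at 565 listed probes, beside 38.0% of all probes, 540 of them away from 0, beside 27.4% of all probes, and 305 of the 565 did not depart from the widened value. The list's own rule bears on these counts. Of its probes, 319 reached a log2 ratio of 1 in size at 15 d but not at 8 d, of which 146 lay past the widened value and 0 fell short, and this direction is fixed by how they came to be listed. Among the 354 listed probes that had already reached 1 in size at 8 d, 78 lay past the widened value and 68 fell short. Over all 367 probes of that size at 8 d, listed or not, 82 lay past it and 75 fell short. The slope matters too, since with the major axis slope of 1.25, which allows for error at both time points, 149 listed probes lay past the widened value and 105 fell short. With a replicate number left out of all time points, calls over all probes fell to between 377 and 437 above and between 423 and 432 below, and 48 listed probes fell short without replicate 1.

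**Figure D1:**
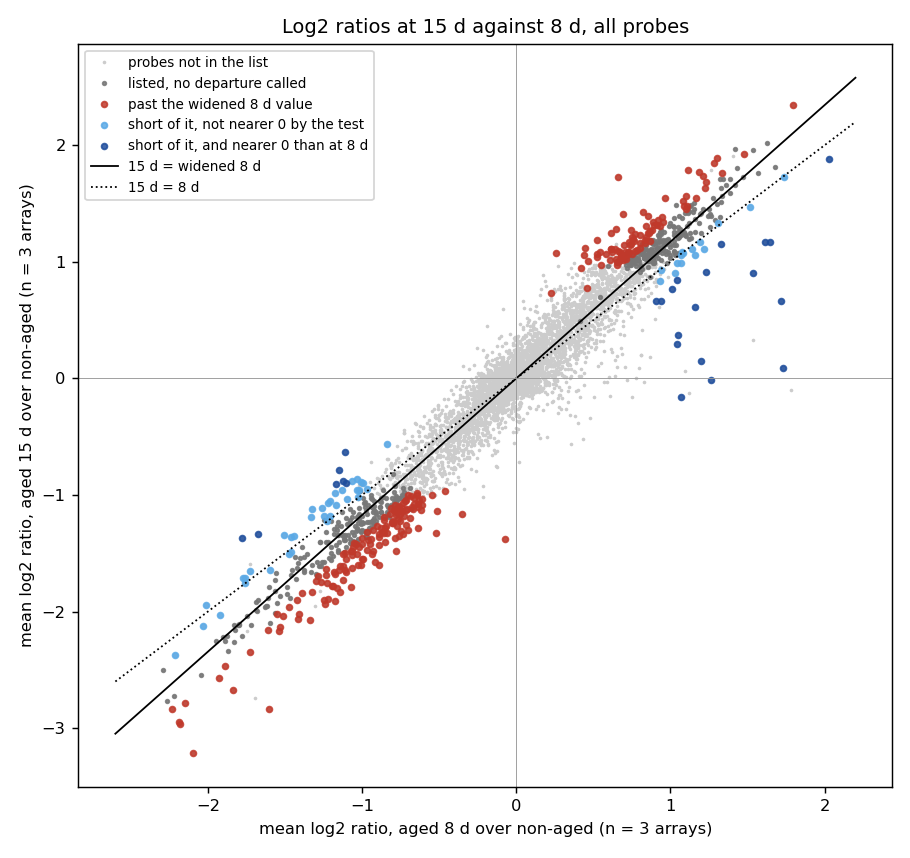
Mean log2 ratio of each of 5246 probes at 15 d (vertical axis) against 8 d (horizontal axis), with n = 3 arrays each, the widened 8 d value as a solid line of slope 1.17 and equality as a dotted line. Red points, 234 listed probes, lie past the solid line, and the 75 blue ones fall short of it, the dark blue being nearer 0 at 15 d than at 8 d.

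Products that were up-regulated at 8 d and had come back towards the level of non-aged seeds gave the largest departures of the list. Among 330 listed probes above 0 at 8 d, 33 (10.0%) fell short of the widened value, against 13.3% of all probes above 0 at 8 d. The 2 shares are of probes of unlike size, since 231 of the 358 behind the second lay between 0 and 0.5 at 8 d. Of listed probes at 1 or more at 8 d, 29 of 126 fell short, beside 25.0% of all 132 such probes. For 18 of the 33 listed probes, the plain difference of 15 d minus 8 d was itself towards 0 at an adjusted p under 0.05. These are called returned. Cysteine proteinase RD21 (probe PSOLI04472), a papain-type protease of the vacuole induced by drought in Arabidopsis, had log2 ratios of -0.02, 0.21 and 0.08 at 15 d, against 1.64, 1.87 and 1.68 at 8 d, and its widened 8 d mean was 2.03. All 3 arrays of 15 d lay near 0 and far below every array of 8 d, and the departure was -1.94 ± 0.08 (limma, adjusted p = 5.1e-10). At 15 d its ratio no longer differed from 0 (mean 0.09, adjusted p = 0.145). A glutathione-dependent formaldehyde dehydrogenase (PSOLI05002), which clears formaldehyde and S-nitrosoglutathione, had ratios of 0.69, 0.63 and 0.66 at 15 d, against 1.69, 1.68 and 1.79 at 8 d. It remained up-regulated at 15 d, and its departure was -1.36 ± 0.06 (limma, adjusted p = 5.1e-10). A putative peroxidase (PSOLI00489) had ratios of 0.14, 0.20 and 0.10 at 15 d, against 1.14, 1.23 and 1.23 at 8 d, a departure of -1.26 ± 0.07 (limma, adjusted p = 2.9e-09). The groups did not overlap for any of these 3 products.

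Sugar use and phosphate release were represented among the returned products as well. Phosphofructokinase (PSOLI03813), an enzyme that commits hexose phosphate to glycolysis, had ratios of 0.30, 0.24 and 0.34 at 15 d, against 1.04, 1.07 and 1.02 at 8 d. The departure was -0.93 ± 0.05 (limma, adjusted p = 1.6e-08). A putative sucrose synthase (PSOLI04390), which splits sucrose with UDP, had ratios of 1.13, 1.26 and 1.13 at 15 d, against 1.58, 1.71 and 1.64 at 8 d. It was still more than 2-fold up-regulated at 15 d but lay below every array of 8 d, with a departure of -0.75 ± 0.06 (limma, adjusted p = 5.7e-07). A purple acid phosphatase-like protein (PSOLI02408), of a family that releases phosphate from organic esters, had ratios of 0.44, 0.32 and 0.35 at 15 d, against 1.14, 0.97 and 1.04 at 8 d, and departed by -0.86 ± 0.06. Histone H1 (PSOLI02318), the linker histone, had ratios of 0.63, 0.48 and 0.72 at 15 d, against 1.13, 1.17 and 1.17 at 8 d, and departed by -0.75 ± 0.08. A ripening-related protein (PSOLI05102) had ratios of -0.19, -0.13 and -0.17 at 15 d, against 0.68, 1.22 and 1.31 at 8 d. Its arrays of 8 d were spread widely (SD 0.34), and the departure was -1.42 ± 0.13 (limma, adjusted p = 1.9e-06).

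The return was already there at 12 d for most of these products. Of all 25 returned probes of the list, 18 above and 7 below 0 at 8 d, 17 had a 12 d mean nearer to their 15 d mean than to their 8 d mean. Over all 5246 probes, 525 (10.0%) met the same rule, which goes by sign and so includes probes that crossed 0. In time order, the 3 means were 1.73, 0.11 and 0.09 for RD21, 1.72, 0.85 and 0.66 for the formaldehyde dehydrogenase, 1.07, -0.04 and -0.16 for the ripening-related protein and 1.04, 0.36 and 0.29 for phosphofructokinase. Of the 234 probes past the widened value, 173 had a 12 d mean nearer to that of 8 d and 61 nearer to that of 15 d. A probe that only followed the general widening would also lie nearer 8 d, since the slopes on 8 d were 1.01 at 12 d and 1.17 at 15 d. The same counts were not made over all probes. Arrays of 12 d took part in the choice of the list and in the fit, and the position of a 12 d mean depends on the same 8 d and 15 d means. The difference between the counts was not tested.

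**Figure D2:**
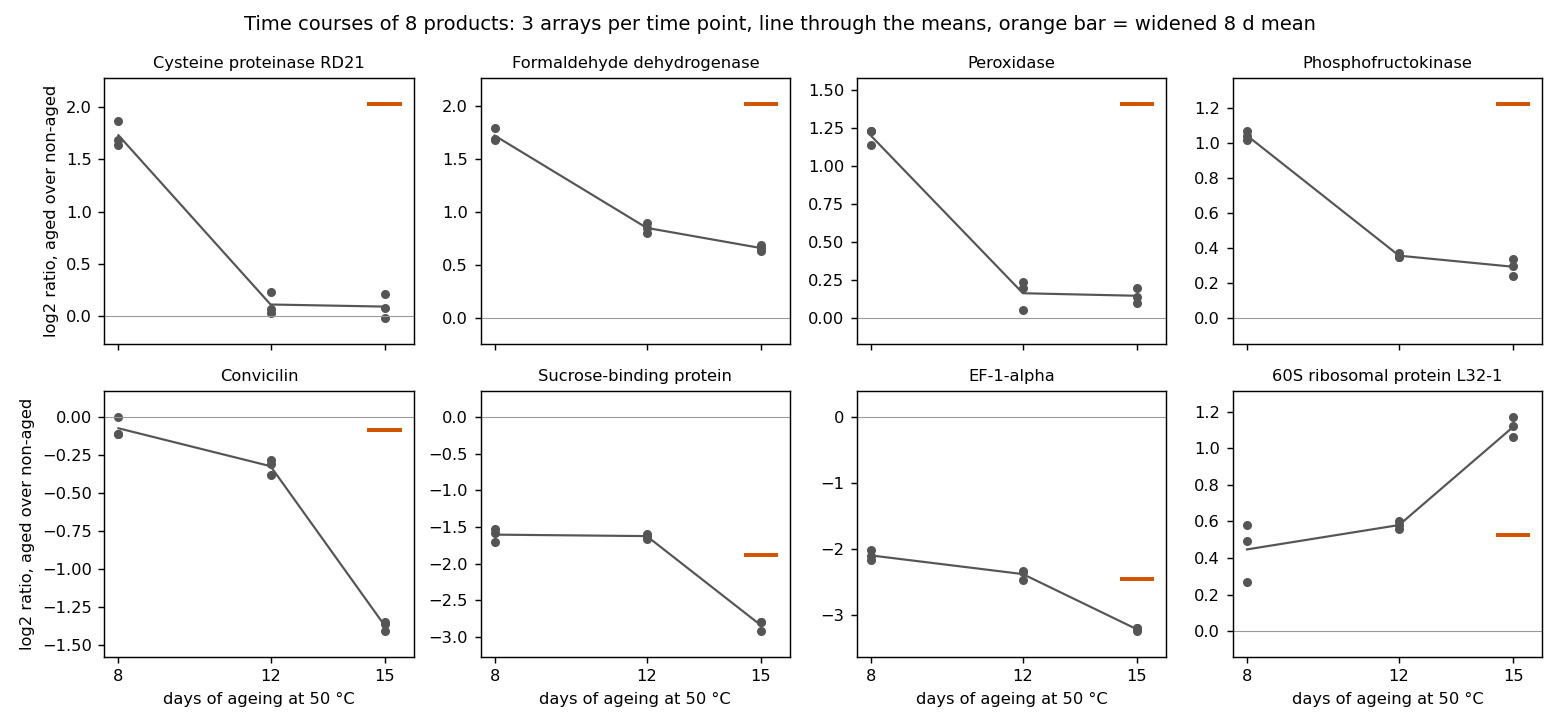
Log2 ratios of aged over non-aged seeds at 8, 12 and 15 d for 8 products, each array as a point and a line through the 3 means, with an orange bar at the widened 8 d mean. In the upper row the ratio is lower at 12 d and 15 d than at 8 d, as for RD21 with means of 1.73, 0.11 and 0.09, while in the lower row most of the change lies between 12 d and 15 d.

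Down-regulated products that came back part of the way were fewer and their departures smaller. Among 387 listed probes below 0 at 8 d, 42 (10.9%) fell short of the widened value, against 13.6% of all probes below 0 at 8 d. Of the 42, 7 were nearer 0 at 15 d than at 8 d by the test of the plain difference. Here too the size at 8 d was unlike, since 244 of the 346 behind the second share lay between -0.5 and 0. Of the 228 listed probes at -1 or less at 8 d, 39 fell short, beside 17.8% of all 230 probes below -1. A putative elongation factor 2 (PSOLI00844), a factor that moves the ribosome along its messenger, had ratios of -1.45, -1.37 and -1.28 at 15 d, against -1.94, -1.46 and -1.93 at 8 d. One array of 8 d lay within 0.01 of the nearest array of 15 d before widening, and the departure was 0.72 ± 0.13 (limma, adjusted p = 0.001). Argininosuccinate synthase (PSOLI04292), of arginine synthesis, had ratios of -0.68, -0.67 and -0.54 at 15 d, against -0.95, -1.26 and -1.13 at 8 d, and departed by 0.67 ± 0.08 (limma, adjusted p = 2.1e-05). Cytochrome P450 74A (PSOLI00754), the family of allene oxide synthase in jasmonate synthesis, had ratios of -0.85, -0.87 and -0.63 at 15 d, against -1.09, -1.12 and -1.24 at 8 d, a departure of 0.56 ± 0.07 (limma, adjusted p = 6.5e-05). Each of these products stayed below 0 at 15 d on all 3 arrays.

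Further products of the same kind were a glycosyl hydrolase of family 51 (PSOLI00974, departure 0.63 ± 0.10), legumain (PSOLI05207, 0.46 ± 0.07), the vacuolar processing enzyme that matures storage proteins, and a calcium-dependent protein kinase (PSOLI00523, 0.43 ± 0.06). Legumain had ratios of -0.88, -0.88 and -0.97 at 15 d, against -1.24, -1.03 and -1.24 at 8 d. The kinase had ratios of -0.92, -0.83 and -0.90 at 15 d, against -1.10, -1.08 and -1.19 at 8 d, and the arrays did not overlap in either product. A nucleoporin family protein (PSOLI00821, 0.44 ± 0.11) and an S1 RNA-binding domain protein (PSOLI02132, 0.42 ± 0.10) fell short of the widened value without a tested return. The call for the nucleoporin was lost without replicate 1 (adjusted p = 0.062), without replicate 3 (0.093) and without replicate 2 of 8 d alone (0.0512), and that for the S1 protein without replicate 1 (0.0645). In all, 50 listed probes fell short in this way, 15 above and 35 below 0 at 8 d. Legumin J (PSOLI04998), a storage globulin, had a mean of 1.73 at 15 d, against 1.74 at 8 d, and a departure of -0.31 ± 0.07 (adjusted p = 0.0032, and 0.0603 without replicate 2).

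**Figure D3:**
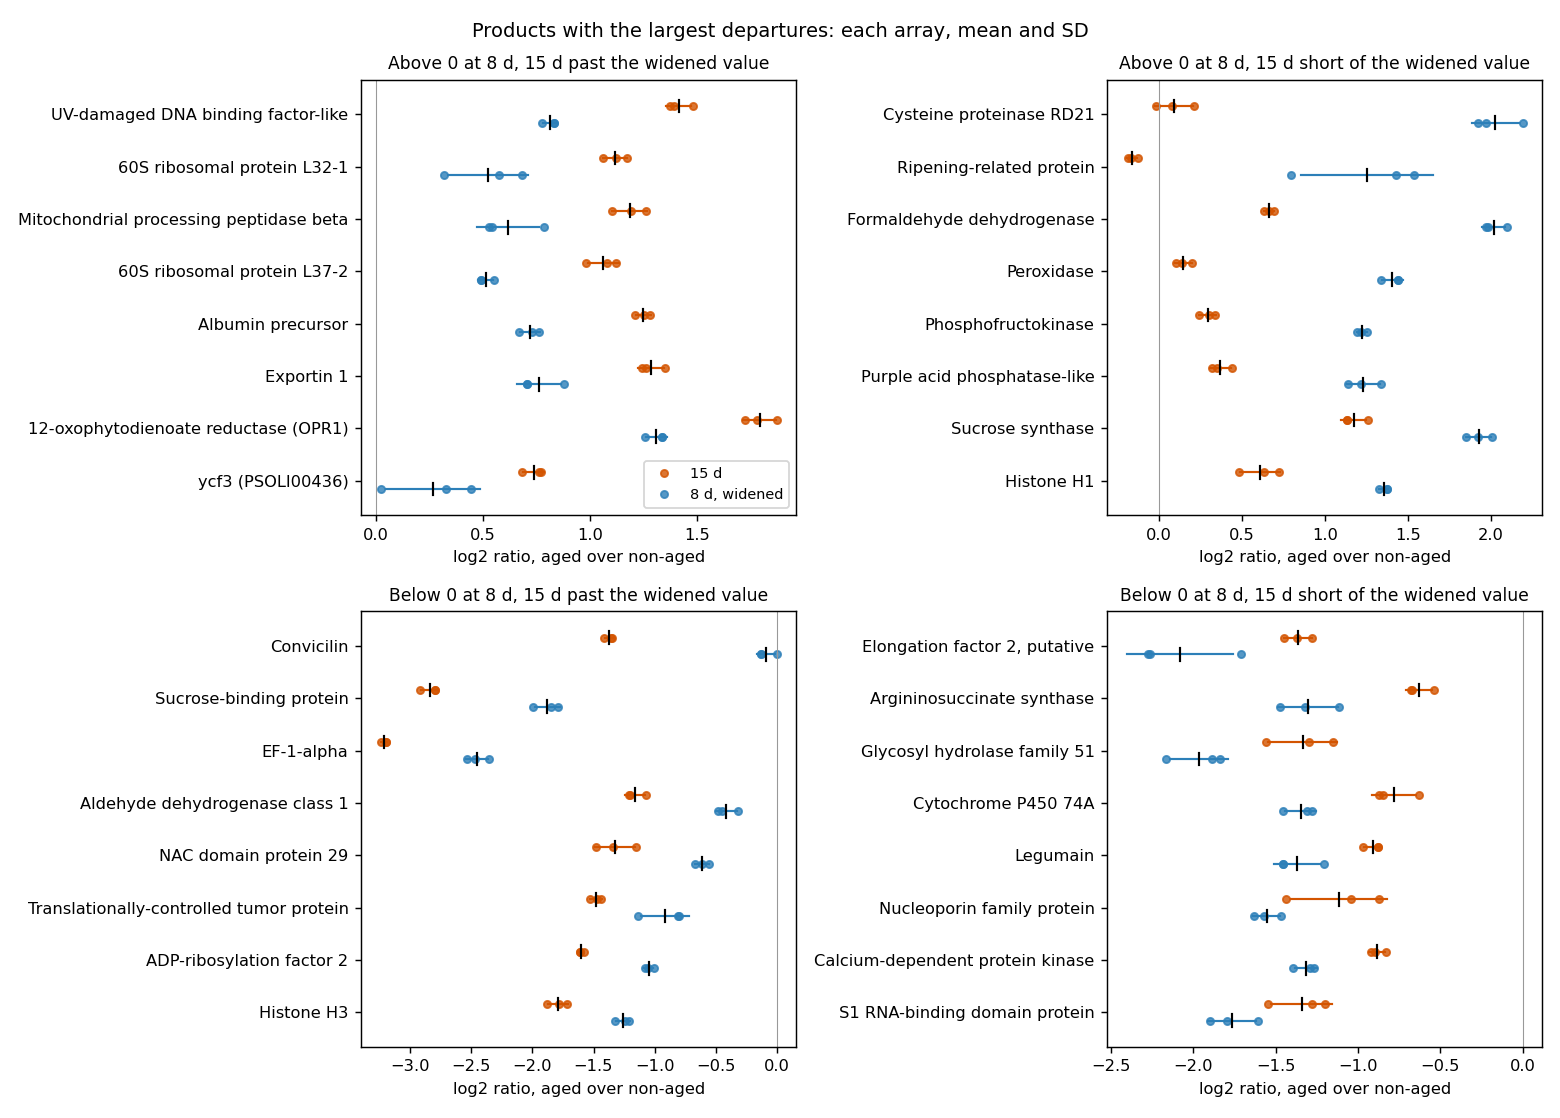
Log2 ratios of aged over non-aged seeds for the named products with the 8 largest departures in each direction and on each side of 0 at 8 d, each array at 15 d (orange) above the widened array values of 8 d (blue), with the mean as a black tick and the SD as a line (n = 3 each). The 3 values at 15 d do not overlap the 3 widened values of 8 d for any product shown, as the rule for naming them required.

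Products with a mean below 0 at 8 d, however small, that were further down at 15 d than the widening gives were the most numerous group. Of 387 listed probes below 0 at 8 d, 142 lay past the widened value, against 13.3% of all probes below 0 at 8 d, a share that the list's own choice raises. Convicilin (PSOLI00637), a storage globulin of the vicilin type, was hardly changed at 8 d, with ratios of -1.36, -1.35 and -1.41 at 15 d, against 0.00, -0.11 and -0.11 at 8 d. Its mean at 12 d was -0.32, and the departure at 15 d was -1.29 ± 0.06 (limma, adjusted p = 7.5e-10). A sucrose-binding protein (PSOLI00636), a seed protein related to the vicilins, had ratios of -2.80, -2.92 and -2.80 at 15 d, against -1.70, -1.58 and -1.53 at 8 d. Its mean at 12 d was -1.62, close to that of 8 d (-1.60), and the departure was -0.96 ± 0.06 (limma, adjusted p = 6.7e-08). Elongation factor 1-alpha (PSOLI01474), which brings aminoacyl-tRNA to the ribosome, had ratios of -3.24, -3.20 and -3.20 at 15 d, against -2.16, -2.11 and -2.01 at 8 d, and departed by -0.76 ± 0.06 (limma, adjusted p = 6.2e-07). In each of these products every array of 15 d lay below every array of 8 d.

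Aldehyde dehydrogenase class 1 (PSOLI04356), which oxidises reactive aldehydes, had ratios of -1.20, -1.07 and -1.21 at 15 d, against -0.41, -0.38 and -0.27 at 8 d, and departed by -0.75 ± 0.07 (limma, adjusted p = 1.5e-06). NAC domain-containing protein 29 (PSOLI00791), a plant transcription factor, had ratios of -1.15, -1.48 and -1.34 at 15 d, against -0.57, -0.52 and -0.47 at 8 d, and departed by -0.71 ± 0.08 (limma, adjusted p = 1.1e-05). Both lay below every array of 8 d on all 3 arrays of 15 d. A translationally-controlled tumor protein homologue (PSOLI04617), a conserved growth-related protein, departed by -0.57 ± 0.09 and ADP-ribosylation factor 2 (PSOLI04253), a small GTPase of vesicle budding, by -0.55 ± 0.06. Histone H3 (PSOLI04463), a core histone, had ratios of -1.78, -1.88 and -1.72 at 15 d, against -1.03, -1.13 and -1.06 at 8 d, and departed by -0.54 ± 0.06 (limma, adjusted p = 2.1e-05).

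Products with a mean above 0 at 8 d that rose further than the widening numbered 92 of 330, against 14.2% of all probes above 0 at 8 d. The list's own choice raises this share. Of the 126 listed probes at 1 or more at 8 d, 16 lay past the widened value, beside 12.9% of all 132 such probes. The departures of the 92 were smaller, with a median of 0.27. The UV-damaged DNA binding factor-like protein (PSOLI02565), by name related to the recognition of damaged DNA, had ratios of 1.39, 1.37 and 1.48 at 15 d, against 0.66, 0.71 and 0.71 at 8 d. The departure was 0.60 ± 0.06 (limma, adjusted p = 5.7e-06). The beta subunit of the mitochondrial processing peptidase (PSOLI01338), which cleaves targeting peptides from imported proteins, had ratios of 1.10, 1.26 and 1.19 at 15 d, against 0.67, 0.45 and 0.46 at 8 d, a departure of 0.57 ± 0.07 (limma, adjusted p = 5.3e-05). An albumin precursor (PSOLI04531), a seed storage protein, had ratios of 1.25, 1.21 and 1.28 at 15 d, against 0.62, 0.57 and 0.65 at 8 d, and departed by 0.53 ± 0.07. These 3 products lay higher on every array of 15 d than on any array of 8 d.

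Exportin 1 (PSOLI00641), a carrier for nuclear export, had ratios of 1.26, 1.24 and 1.35 at 15 d, against 0.75, 0.60 and 0.60 at 8 d, and departed by 0.52 ± 0.07 (limma, adjusted p = 5e-05). 12-Oxophytodienoate reductase OPR1 (PSOLI04604), of a family that reduces oxylipins, had ratios of 1.78, 1.72 and 1.87 at 15 d, against 1.14, 1.07 and 1.14 at 8 d, and departed by 0.48 ± 0.06 (limma, adjusted p = 8.5e-05). The other probe of that family on the list, 12-oxophytodienoate reductase 2 (PSOLI04233), was down-regulated, with means of -1.41 at 15 d and -1.08 at 8 d, and gave no call. A probe for ycf3 (PSOLI00436), an assembly factor of photosystem I encoded in the plastid, had ratios of 0.77, 0.68 and 0.76 at 15 d, against 0.28, 0.38 and 0.02 at 8 d, a departure of 0.47 ± 0.08 (limma, adjusted p = 0.00073). Its level was highest at 12 d, with a mean of 1.21. A further probe of the same product name (PSOLI01196) departed the other way, by -0.32 ± 0.06 (limma, adjusted p = 0.0012), with means of 1.11 at 15 d and 1.22 at 8 d.

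Ribosomal proteins gave the largest family on the list, with 58 probes for proteins of the cytosolic ribosome, 15 above and 43 below 0 at 8 d. Of these, 33 lay past the widened value, 1 fell short and 24 gave no call, which is 56.9% past the value, beside 32.6% of the whole list. The counts of every family and category below stand beside the same 32.6% past and 10.5% short in the list. Over all probes the shares were 13.7% and 13.4%. In the large subunit, 22 of 34 lay past the widened value and 0 fell short. In the small subunit the counts were 11 and 1 of 24. The departures ran both ways from 0. Of the large-subunit probes, 6 of 9 that were up-regulated at 8 d were further up, and 16 of 25 that were down-regulated were further down. The median ratio of the up-regulated large-subunit probes was 1.09 at 15 d and 0.73 at 8 d, and that of the down-regulated ones -1.27 at 15 d and -0.93 at 8 d. Most of these probes had not reached 1 in size at 8 d, so that their direction is partly fixed by the list. Of the 21 that had, 8 lay past the widened value and 1 fell short, beside 78 and 68 of 354 for the whole list. However, 20 of the 21 were below 0 at 8 d, where 8 lay past the value and 1 fell short. The closer comparison is with the 228 such listed probes below 0, of which 62 lay past it and 39 fell short. With the major axis slope, 7 small-subunit probes lay past the value.

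L32-1 (PSOLI04324) had ratios of 1.12, 1.06 and 1.17 at 15 d, against 0.58, 0.49 and 0.27 at 8 d, a departure of 0.59 ± 0.08 (limma, adjusted p = 5.3e-05). L37-2 (PSOLI03397) had ratios of 1.08, 0.98 and 1.12 at 15 d, against 0.42, 0.42 and 0.47 at 8 d, a departure of 0.55 ± 0.07 (limma, adjusted p = 6.9e-05). Both are proteins of the large subunit, and every array of 15 d exceeded every array of 8 d. On the other side of 0, L30 (PSOLI03814) had means of -1.14 at 15 d and -0.52 at 8 d (departure -0.53 ± 0.06), and L22-2 (PSOLI04765) -2.07 at 15 d and -1.34 at 8 d (departure -0.51 ± 0.07). L19-1 (PSOLI04236, -0.47 ± 0.06) was further down and L29-1 (PSOLI04069, 0.45 ± 0.07) further up. Of the small subunit, S4-2 (PSOLI04813, -0.49 ± 0.06) and S13 (PSOLI04289, -0.48 ± 0.06) fell furthest below the widened value, and S24 (PSOLI02286, 0.34 ± 0.06) rose furthest above it. The exception was a probable homologue of S7 (PSOLI05075), with means of -0.89 at 15 d and -1.01 at 8 d and a departure of 0.29 ± 0.06 (limma, adjusted p = 0.0021). One name was found on both sides. L15-2 was further up at PSOLI01752 (0.39 ± 0.08, adjusted p = 0.0028) and further down at PSOLI04205 (-0.24 ± 0.07, adjusted p = 0.019). At PSOLI04205 the call was lost without replicate 1 (adjusted p = 0.179), without replicate 3 (0.113) and with any 1 of 3 single arrays left out (0.0608 to 0.086), and also with the slope over listed probes alone (0.0695), the major axis slope (0.16) and a smooth curve (0.0807). Of 6 listed proteins of the plastid ribosome, 2 lay past the widened value and 0 fell short.

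**Figure D4:**
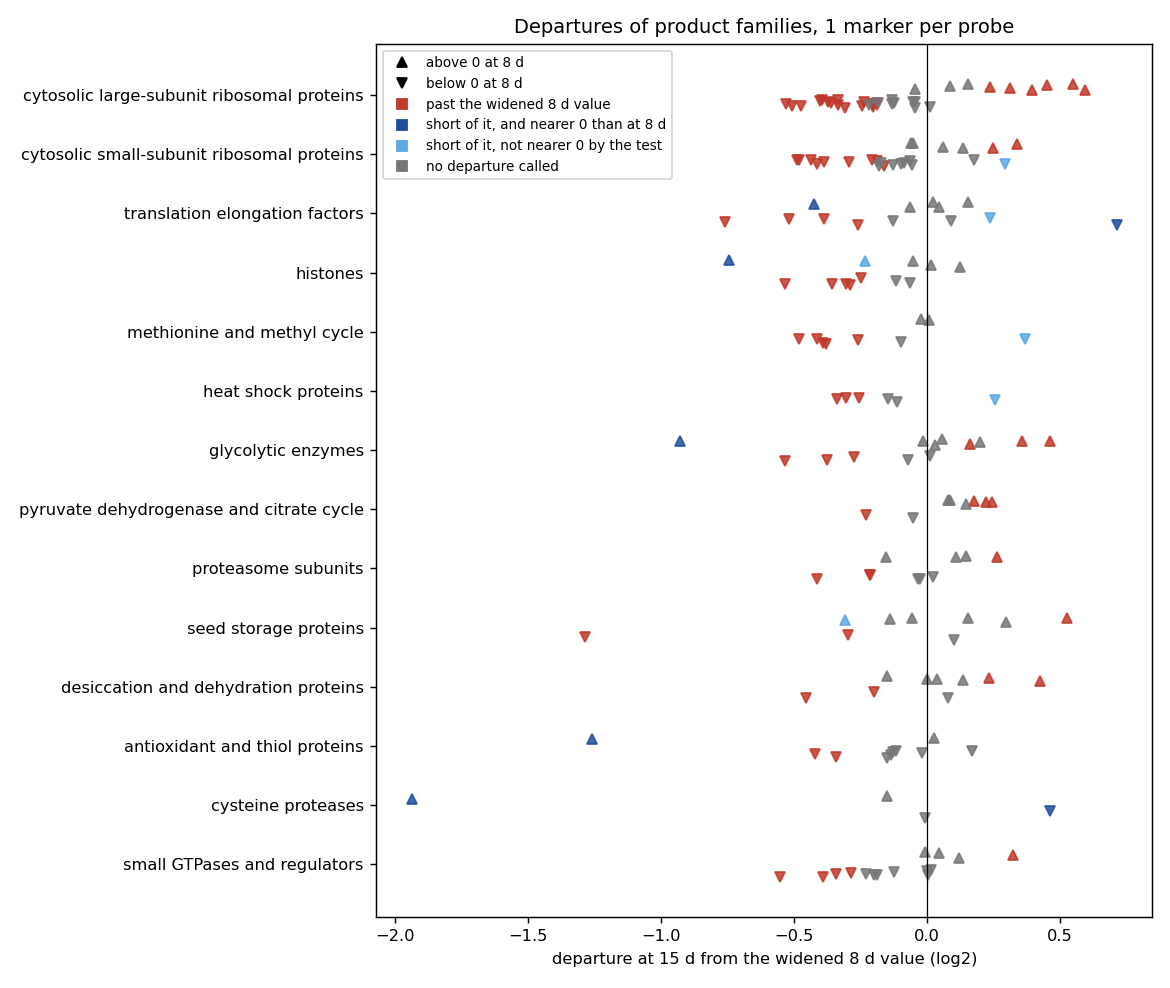
Departure at 15 d from the widened 8 d value (log2, horizontal axis) for each listed probe of 14 product families, with upward triangles for probes above 0 at 8 d and downward ones for probes below 0. Colours show whether the probe was called past the value (red) or short of it (blue), and in the ribosomal families red upward triangles lie right of 0 and red downward ones left of it.

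Translation factors were divided. Of 13 probes for elongation factors, 4 lay past the widened value, 3 fell short and 6 gave no call, and none of the 5 up-regulated ones was further up. A further probe for elongation factor 1-alpha (PSOLI02752) had means of -2.68 at 15 d and -1.84 at 8 d and departed by -0.52 ± 0.06 (limma, adjusted p = 2.2e-05), as the first did. Another probe for it (PSOLI02555) was up-regulated and returned, with means of 0.76 at 15 d and 1.01 at 8 d and a departure of -0.42 ± 0.06 (limma, adjusted p = 0.00018). Eukaryotic elongation factor 2 (PSOLI04741) was further down, by -0.39 ± 0.06, where the putative elongation factor 2 named above fell short. Elongation factor EF-Tu (PSOLI02197), the organellar counterpart of elongation factor 1-alpha, had means of -1.18 at 15 d and -1.21 at 8 d and departed by 0.24 ± 0.06. Without replicate 2 the call for EF-Tu was lost (adjusted p = 0.151), as it was without replicate 2 of 8 d alone (0.0568). Of 8 probes for initiation factors, 2 lay past the widened value, and the larger departure was that of factor 5A-5 (PSOLI04630), with means of -0.96 at 15 d and -0.46 at 8 d (-0.42 ± 0.07, adjusted p = 0.00032).

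All called histones, proteins that package DNA, lay below the widened 8 d value. Of 7 probes below 0 at 8 d, 5 were further down at 15 d, and all 5 were core histones, H3 (PSOLI04463 and PSOLI00150), H3.3 (PSOLI01927 and PSOLI03330) and H2A.3 (PSOLI02502), with departures between -0.54 and -0.25. Of 5 probes above 0 at 8 d, 2 fell short, the linker histone H1 named above and a histone H4 variant (PSOLI01951), which departed by -0.23 ± 0.05. The calls for H3.3 at PSOLI03330 and for the H4 variant were lost without replicate 3 (adjusted p = 0.0576) and without replicate 2 (adjusted p = 0.0729). Both histone deacetylases of the list gave no call.

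The methionine and methyl cycle supplies S-adenosylmethionine, the donor of methyl groups, and takes back the homocysteine that remains. Of its 7 probes below 0 at 8 d, 5 were further down at 15 d, beside 36.7% of all listed probes below 0 at 8 d. Adenosylhomocysteinase (PSOLI04530), which splits adenosylhomocysteine, had means of -1.93 at 15 d and -1.24 at 8 d and departed by -0.48 ± 0.07 (limma, adjusted p = 1e-04). S-adenosylmethionine synthetase 1 departed by -0.41 ± 0.06 at PSOLI00486 and by -0.38 ± 0.06 at PSOLI04879. A methionine synthase (PSOLI00936, -0.39 ± 0.10) and adenosylmethionine decarboxylase (PSOLI04220, -0.26 ± 0.06) were further down too, but not without replicate 2 for the first (adjusted p = 0.0842) and not without replicate 1 for the second (adjusted p = 0.0714). Spermidine synthase 1 (PSOLI02518), which uses the decarboxylated product, fell short, with means of -1.71 at 15 d and -1.77 at 8 d (0.37 ± 0.07, adjusted p = 0.0014). The 2 up-regulated probes of this family gave no call. In leucine and threonine synthesis, 3 of 5 probes lay past the value and 0 fell short. There the large subunit of 3-isopropylmalate dehydratase (PSOLI00330) was further down (-0.38 ± 0.07) and ketol-acid reductoisomerase (PSOLI02505) further up (0.33 ± 0.08).

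Of 13 probes grouped by name as glycolytic enzymes, 6 lay past the widened value (46.2%, beside 32.6% of the list), 3 on each side of 0. Only phosphofructokinase fell short. The 3 above 0 include a chloroplast form of glyceraldehyde 3-phosphate dehydrogenase, which shares the enzyme name but is not an enzyme of cytosolic glycolysis. Enolase (PSOLI04156) had means of -1.91 at 15 d and -1.18 at 8 d and departed by -0.53 ± 0.07 (limma, adjusted p = 6.4e-05). Aldolase was found on both sides, with a putative fructose-bisphosphate aldolase (PSOLI04449) further down by -0.37 ± 0.07 and a cytoplasmic isozyme (PSOLI04974) further up by 0.36 ± 0.07. The same held for glyceraldehyde 3-phosphate dehydrogenase. The chloroplast form B (PSOLI00908) was further up by 0.46 ± 0.06, and the cytosolic form (PSOLI04285) further down by -0.27 ± 0.07, a call that was lost without replicate 2 (adjusted p = 0.0724). In the use of sucrose and galactose, UDP-glucose 4-epimerase (PSOLI00615) departed by -0.41 ± 0.06, and 2 of 6 probes in all lay past the value and 1 fell short. Of 8 probes for pyruvate dehydrogenase and the citrate cycle, 4 lay past the widened value (50.0%, beside 32.6% of the list) and 0 fell short. Only 2 of the 8 had reached 1 in size at 8 d, of which 1 lay past it, so that the direction is partly fixed by the list.

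Among seed proteins, the members did not move as a group. Of 9 probes for storage proteins, convicilin, provicilin type A (PSOLI02231, -0.30 ± 0.05, adjusted p = 0.00088) and the albumin precursor lay past the widened value, legumin J fell short and 5 gave no call. The provicilin probe had means of -1.68 at 15 d and -1.18 at 8 d. Of 9 probes for desiccation and dehydration proteins, 4 lay past the value and 0 fell short, but 0 of the 2 that had reached 1 in size at 8 d lay past it, so that the direction is largely fixed by the list. An embryonic abundant protein (PSOLI03997), of the proteins laid down late in maturation, had means of -1.35 at 15 d and -0.76 at 8 d and departed by -0.46 ± 0.06 (limma, adjusted p = 0.00012). Dehydration-responsive protein RD22 (PSOLI00886) had means of 1.04 at 15 d and 0.52 at 8 d and departed by 0.43 ± 0.07 (limma, adjusted p = 0.00039). The hydrophobic protein RCI2B (PSOLI04494) departed by 0.23 ± 0.06, which was lost without replicate 3 (adjusted p = 0.142).

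Chaperones and protein breakdown gave departures on both sides. All 6 heat shock proteins of the list were down-regulated, 3 were further down at 15 d and 1 fell short. Heat shock protein 81-3 (PSOLI00619), of the HSP90 family of chaperones, had means of -2.13 at 15 d and -1.53 at 8 d and departed by -0.34 ± 0.06 (limma, adjusted p = 0.00083). The one that fell short (PSOLI00955) departed by 0.26 ± 0.06, and its call was lost without replicate 2 (adjusted p = 0.151). Of 10 proteasome subunits, 4 lay past the widened value (40.0%, beside 32.6% of the list) and 0 fell short. The ATPase subunit RPT6a (PSOLI04296) was furthest down (-0.41 ± 0.07, adjusted p = 5e-04), and a non-ATPase 26S subunit (PSOLI04626) was further up (0.27 ± 0.06, adjusted p = 0.0041). Of 10 probes for ubiquitin and its conjugating enzymes, 5 lay past the value and 1 fell short. Of the 3 that had reached 1 in size at 8 d, 1 lay past it and 1 fell short. Probes named ubiquitin were found further up at PSOLI04506 (0.32 ± 0.06), further down at PSOLI03835 (-0.27 ± 0.07) and short of the value at PSOLI05050 (-0.19 ± 0.06, above 0 at 8 d). The call at PSOLI03835 was lost without replicate 1 (adjusted p = 0.0762) and without replicate 2 (0.0855). At PSOLI05050 it was lost without replicate 2 (0.19), without replicate 3 (0.135) and with any 1 of 3 single arrays left out (0.0558 to 0.114). Of 9 parts of ubiquitin ligases, 3 lay past the value and 0 fell short. Polyubiquitin (PSOLI02850) was further up, by 0.35 ± 0.07. In the endoplasmic reticulum, 3 of 4 probes lay past the value, none of which had reached 1 in size at 8 d. The luminal-binding protein BiP2 (PSOLI03407), a chaperone of that compartment, departed by 0.25 ± 0.07. Bax inhibitor 1 (PSOLI01240), which restrains cell death, departed by 0.23 ± 0.06, with means of 0.77 at 15 d and 0.46 at 8 d. Its mean was highest at 12 d, at 1.01. Derlin-2.2 (PSOLI00092), of the export of misfolded proteins, departed by -0.27 ± 0.07. Each of the 3 calls was lost with a replicate left out. For BiP2 this was so without replicate 1 (adjusted p = 0.173), without replicate 3 (0.0645) and without replicate 1 of 8 d alone (0.0819). For Bax inhibitor 1 and derlin-2.2 it was so without replicate 2 (adjusted p of 0.052 and 0.0851), and for derlin-2.2 also without replicate 3 (0.0566).

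Of 10 antioxidant and thiol proteins, 2 were further down than the widening gives, 1 fell short and 7 gave no call. Peroxiredoxin type 2 (PSOLI04083), which reduces peroxides through thiols, had means of -1.26 at 15 d and -0.71 at 8 d and departed by -0.42 ± 0.06 (limma, adjusted p = 0.00011). Peroxidase 42 (PSOLI00944) had means of -1.65 at 15 d and -1.11 at 8 d and departed by -0.34 ± 0.06 (limma, adjusted p = 0.00087), while the putative peroxidase named above returned from 8 d. Of 4 formaldehyde dehydrogenases of this kind, 1 lay past the value and 1 fell short. A universal stress protein (PSOLI04490) was the most up-regulated listed probe at 8 d, and its mean was 1.88 at 15 d, against 2.03 at 8 d, with a departure of -0.50 ± 0.06 (limma, adjusted p = 1.7e-05). The 2 ferritins gave no call.

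Of 9 probes for mitochondrial carriers, import and cytochromes, 5 lay past the widened value and 1 fell short. The translocase subunit TIM50 (PSOLI01371), of protein import into mitochondria, was further up (0.38 ± 0.07, adjusted p = 0.00074), with means of 1.77 at 15 d and 1.19 at 8 d. Its mean was highest at 12 d, at 1.91. The ADP,ATP carrier (PSOLI00646), which exchanges nucleotides across the inner membrane, was further down (-0.33 ± 0.06, adjusted p = 0.0014). Of 4 probes for the plastid-encoded ycf1, ycf3 and photosystem II protein I, 1 lay past the value and 2 fell short. Of these 2, ycf1 (PSOLI00884) departed by -0.26 ± 0.06, a call that was lost without replicate 2 (adjusted p = 0.059). Of 15 small GTPases and regulators, 5 lay past the widened value (33.3%, beside 32.6% of the list) and 0 fell short, and 0 of the 3 that had reached 1 in size at 8 d lay past it. Rab7A (PSOLI04188, -0.39 ± 0.08) and Ran (PSOLI04314, -0.34 ± 0.06), of late endosomes and of nuclear transport, were further down, and a GTP-binding protein (PSOLI01407, 0.32 ± 0.06) was further up. In the cytoskeleton, actin-depolymerizing factor 2 (PSOLI05156, -0.31 ± 0.06) was further down and tubulin alpha chain (PSOLI03966, 0.31 ± 0.07) further up. Of the pair of 14-3-3 proteins and the pair of oleosins, 1 each lay past the value, as did 1 of 3 patellins. Patellin-3 (PSOLI03735), a lipid-binding protein of membrane traffic, had means of -0.56 at 15 d and -0.84 at 8 d and departed by 0.42 ± 0.12, which was lost without replicate 1 of 8 d (adjusted p = 0.0714). Among 7 NAC and MYB factors, NAC domain-containing protein 29, further down, and 1 MYB protein, further up, lay past the value and 5 gave no call.

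Over the functional categories given in the study's list, translation, the largest named category, had 35 of 79 probes past the widened value (44.3%, beside 32.6% of the list) and 3 short of it, and 12 of the 36 that had reached 1 in size at 8 d lay past it. RNA processing and modification had 6 of 10 past the value and 0 short, and energy production and conversion 9 of 15 and 1. Over all probes, 13.7% lay past the value and 13.4% fell short. Of the members that had reached 1 in size at 8 d, 1 of 4 and 4 of 10 lay past it. The direction of the others is partly fixed by the list. Lipid transport and metabolism ran the other way, with 1 of 11 past the value and 4 short. Of the 4, all below 0 at 8 d, the largest departure was that of patellin-3. None of the 4 probes for inorganic ion transport departed. In the study's lists of functional themes, protein kinases and phosphatases had 0 of 11 past the widened value and 2 short, namely the purple acid phosphatase-like protein and the calcium-dependent protein kinase. The 13 proposed or known regulators of programmed cell death had 3 past the value and 1 short, which was RD21.

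Products without a name were 198 of the list, of which 55 lay past the widened value (27.8%) and 17 fell short (8.6%). In the whole list the shares were 32.6% and 10.5%. A hypothetical protein (PSOLI01600) had ratios of 1.76, 1.69 and 1.72 at 15 d, against 0.72, 0.62 and 0.64 at 8 d, and the largest departure past the widened value among up-regulated probes of the list, 0.95 ± 0.06 (limma, adjusted p = 2.4e-08). Its mean at 12 d was 1.86. An unnamed product further up as well (PSOLI03179) had ratios of 1.17, 0.93 and 1.13 at 15 d, against 0.03, 0.38 and 0.37 at 8 d, and departed by 0.77 ± 0.10. A further one (PSOLI03419) had ratios of -0.03, -0.05 and 0.05 at 15 d, against 1.37, 0.99 and 1.42 at 8 d, and departed by -1.49 ± 0.09 (limma, adjusted p = 3.2e-08). Another hypothetical protein (PSOLI02878) was still up-regulated at 15 d, with means of 0.90 at 15 d and 1.54 at 8 d and a departure of -0.90 ± 0.06. On the other side of 0, PSOLI01572 (-0.51 ± 0.07) and PSOLI00650 (-0.40 ± 0.08) were further down, while PSOLI04964 (0.40 ± 0.08) and PSOLI03138 (0.37 ± 0.09) fell short. Leaving out replicate 3 ended the calls for PSOLI00650 (adjusted p = 0.0562) and PSOLI03138 (0.0561), and leaving out replicate 1 that for PSOLI04964 (0.0518). The hypothetical protein PSOLI03419 and the ripening-related protein were the 2 of the list whose mean was above 0 at 8 d and below 0 at 15 d, and neither differed from 0 at 15 d (adjusted p = 0.893 and 0.0922).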

How the data were processed

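Each array compared RNA of aged and non-aged seeds on 70-mer probes for pea. The deposited values were log2 ratios of aged over non-aged seeds, which the authors had background-corrected, normalized by print-tip loess within each array and scaled between arrays by the median absolute value, with the dye-swapped replicate 2 already turned to the same direction, which was taken from the study's listing of the same probes. Values had steps of 0.01 and none was missing. Spot intensities were not analysed here, and the number of arrays limits the precision.

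All 9 arrays were fitted in limma 3.58.1 (R 4.3.3) with a mean per time point, giving 6 residual degrees of freedom, and p-values were adjusted over all 5246 probes. The error of the slope itself was not carried into the tests. Sums and counts were made in Python 3.11.15. On simulated departures, 80% of those of 0.3 and 100% of those of 0.6 were recovered among 5246 probes. The simulation changed 200 probes and gave every probe the same spread, with independent arrays. Spread differed between probes in the data, so these shares need not hold there. By the series' design text the biological replicates were separately grown and harvested, and the sources used here do not state if arrays of different time points used common non-aged RNA.

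The members, families and lists were chosen with earlier results of these data known. Named products were, among called probes whose 3 values at 15 d did not overlap the 3 widened values of 8 d, the 8 largest departures in each direction and on each side of 0 at 8 d (2 for products without a name), members of families of up to 10 probes, the 2 largest in each direction and the exceptions in larger families, and probes sharing a name that departed in opposite directions. Not every member admitted by this rule is named. After their values were seen, some with small departures or calls lost in several alternatives were left to the counts of their families. Product names are those of the study's lists. Of 549 accession numbers, 0 matched the reference annotation, so no position or sequence is given. Replicate numbers did not pair the arrays. Alternatives were other slopes, a smooth curve, other sets of arrays, a replicate block, a dye term, other scalings and other thresholds.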

Additional observations from a re-analysis of the deposited data

Results flagged for a closer look

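The effect of ageing against non-aged seeds differed between 15 d and 8 d, beyond the general widening, at 729 probes above and at 697 probes below the widened 8 d value, by limma's test of the difference itself. Among listed probes, the hypothetical protein PSOLI03419 (departure -1.49) and the ripening-related protein PSOLI05102 (departure -1.42) were below 0 on average at 15 d and above 0 at 8 d, and the difference was tested for both. Groups of 3 arrays were too small for a search for outlying arrays.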

How the results depend on the processing

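The slope was 1.22 over the listed probes alone, 1.25 on the major axis and 1.00 after division of each array by its median absolute deviation, and 1.16 to 1.17 with a replicate left out. Of the counts, that of listed probes past the widened value was 149 with the major axis slope. Departures of at least 0.3 numbered 237 above and 274 below over all probes, and 110 past and 48 short of the widened value in the list. With a replicate left out, the counts were 377 to 437 above, 423 to 432 below, 166 to 174 past and 48 to 55 short in the list. With single arrays left out they were 536 to 596 above, 550 to 595 below, 205 to 217 past and 55 to 67 short. The share above among all calls was 51.1%, and between 46.4% and 56.4% under the alternatives. The plain difference passed at 1993 probes. The replicate block gave 722 above and 675 below, 236 past and 76 short, and changed no call of a product named here. Same-numbered arrays did not deviate together (r from -0.01 to 0.06). Of 103 named departures, 81 were called under all 22 alternatives that refit them and none changed sign. Some members with calls lost in several alternatives had been left unnamed, which raises this share. It therefore does not measure how firm the calls are in general. Losses without any array left out were those of L15-2 at PSOLI04205 (major axis, slope over listed probes, smooth curve), ubiquitin at PSOLI03835, RCI2B at PSOLI04494 and BiP2 (major axis), and ubiquitin at PSOLI05050 (separate slopes above and below 0). Leaving out the 26 probes named PCPS was chosen after the data were seen, and gave 728 above and 689 below. The causes were not tested.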

Other observations

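The largest departure over all probes was not on the study's list. Probe PSOLI02456, which those lists do not name, had a mean log2 ratio of -0.10 at 15 d, against 1.78 at 8 d, and a departure of -2.18. Its change at 8 d was of the size that the list asks for. Of the 4529 probes that are not listed, 486 lay past the widened 8 d value and 629 fell short. For 500 of the 629, the plain difference was also against the sign of the 8 d mean. These counts go by sign and include probes that crossed 0, such as PSOLI00940, with means of 0.43 at 8 d and -0.52 at 15 d. Among all probes that fell short, 244 were between -0.5 and 0 at 8 d and 231 between 0 and 0.5. A ratio of at least 0.5 at 8 d with a ratio under 0.2 in size at 15 d was found at 4 listed and 21 other probes, and the mirror image of it, at or below -0.5 at 8 d and under 0.2 in size at 15 d, at 0 listed and 0 other probes. This limit was chosen after the data were seen, and no test was made of the difference between the counts.

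The line of slope 1.17 did not describe all levels equally. The median departure was -0.06 over the 230 probes below -1 at 8 d and 0.04 over the 1833 between -0.5 and 0, and lay between -0.02 and 0.03 in the bins above 0.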
